A study of Mus musculus with 6 samples.

Results

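Fibroblast growth factor (FGF) signalling was followed through 10 genes in the sensory epithelia of the newborn mouse inner ear: the ligands Fgf3, Fgf8, Fgf10 and Fgf20, the receptors Fgfr1, Fgfr2 and Fgfr3, and the feedback inhibitors Spry1, Spry2 and Spry4. The members were chosen by name, with earlier results of these data known. Every probe set annotated to exactly 1 of these genes was taken. This gave 21 probe sets of the 10 genes, of 18193 genes with a probe set of their own on the array. Vestibular and cochlear sensory epithelia of postnatal day 2 mice (wild type, strain C3H) were read on 3 arrays each. Vestibular pools were made of saccule, utricle and 2 of the cristae (lateral and anterior). The mesenchyme beneath each epithelium and the neurons attached to it were dissected with it, so the RNA came from several cell types. Pools held 10 to 12 inner ears. The paper names 3 pools per tissue, and for the arrays 3 biological experiments with 3 replicates in each. The sources used here do not tie arrays to pools. The p-values therefore measure the spread between arrays, part of which may be technical. In such bulk samples fewer cells of a type and less RNA per cell cannot be told apart.

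FGFs are secreted proteins that bind tyrosine kinase receptors together with heparan sulfate on the cell surface, and the activated receptor passes the signal through the Ras and ERK kinase cascade. Sprouty proteins are induced by this cascade and inhibit it, which makes them feedback inhibitors. In the mouse inner ear the pathway acts early in otic induction and otocyst morphogenesis, and later in the organ of Corti, where Fgf8 from inner hair cells signals through Fgfr3 to the neighbouring pillar cells, the supporting cells that frame the tunnel of Corti, while Fgf20 and Fgfr1 act in the prosensory cells.

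The question was which of these genes differed in transcript level between the balance and the hearing epithelium. Values are log2 expression levels, and differences run vestibule minus cochlea, so a negative one means a lower level in the vestibule. A probe set was tested with limma where its mean over the 6 arrays was at least 4.7, and called where the Benjamini-Hochberg adjusted p was under 0.1 and the fold at least 1.3. Each gene is represented by its brightest probe set. Of 29554 tested probe sets, 12.0% were called higher and 7.38% lower in the vestibule. Array medians lay between 5.6 and 5.7, where the authors' normalization makes the arrays alike. Over the tested probe sets the cochlea arrays spread more around their tissue means (SD 0.175 to 0.224) than the vestibule arrays (0.132 to 0.139). The small number of arrays limits precision: with 3 against 3, the smallest p that an exact permutation test allows is 0.1. The tissue labels were checked against tissue markers, which were chosen with earlier results of these data known, so the check is not independent. All 4 vestibular tissue markers (Hmx2, Hmx3, Zic1 and Meis2) were higher in the vestibule, and all 3 tested cochlear ones (Gata3, Epyc and Tecta) were higher in the cochlea, whereas the outer hair cell motor gene Slc26a5 read 3.9 to 4.0 on every array of both tissues and was not tested.

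Cell type markers also moved with tissue. Of 12 tested hair cell markers 8 were higher and 0 lower in the vestibule by limma (10 and 0 before adjustment at 0.05, 6 and 0 by an unmoderated test, that is, without limma's pooling of variances), with mean log2 levels over the list of 8.19 to 8.36 in the vestibule and 7.08 to 7.22 in the cochlea. Of 8 macrophage markers 7 were higher and 0 lower in the vestibule by limma (7 and 0 before adjustment at 0.05, 7 and 0 by the unmoderated test), with levels of 8.63 to 8.95 in the vestibule and 7.06 to 7.34 in the cochlea. Of 7 endothelial markers 4 were higher and 1 was lower in the vestibule, by the unmoderated test too (7.66 to 7.83 in the vestibule, 6.70 to 7.0 in the cochlea). Of 12 mesenchyme markers 6 were higher and 1 was lower in the vestibule, but 3 and 1 by the unmoderated test (10.9 to 11.1 in the vestibule, 10.4 to 10.8 in the cochlea). Of 6 Schwann cell markers 3 were higher and 1 was lower, but 1 and 0 by the unmoderated test (11.1 to 11.7 in the vestibule, 10.7 to 11.0 in the cochlea). Neuronal markers ran the other way, with 1 of 9 higher and 7 lower in the vestibule, and 1 and 5 by the unmoderated test (7.33 to 7.54 in the vestibule, 8.40 to 8.81 in the cochlea). The part of these cell types in the results for the FGF genes was not tested.

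By the brightest probe set 8 of the 10 genes were tested and 2, Fgf8 and Fgf20, lay below the filter. Fgf3, Fgfr2 and Spry1 were higher in the vestibule, Fgfr3 and Spry2 were higher in the cochlea, and Fgf10, Fgfr1 and Spry4 were not called. Thus 1 ligand, 1 receptor and 1 Sprouty gene were higher in the vestibule, and 1 receptor and 1 Sprouty gene in the cochlea. The 5 called of 8 stand beside 23.1% of 14162 tested genes, the 3 higher in the vestibule beside 15.1%, and the 2 higher in the cochlea beside 7.97%. As the members were chosen with earlier results of these data known, these shares are given for reference and are no test. In the same 5 genes the arrays of the tissues did not overlap, which was so in 32.3% of all tested genes. Of the 17 tested probe sets of these genes 6 were called higher and 3 lower in the vestibule, and the tissues did not overlap in 9, against 27.5% of all tested probe sets. Each of the 17 had a mean of at least 4.7 in both tissues, so none passed the filter through 1 tissue alone. The median difference was 0.12 over the 8 genes and 0.03 over all tested genes.

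**Figure D1:**
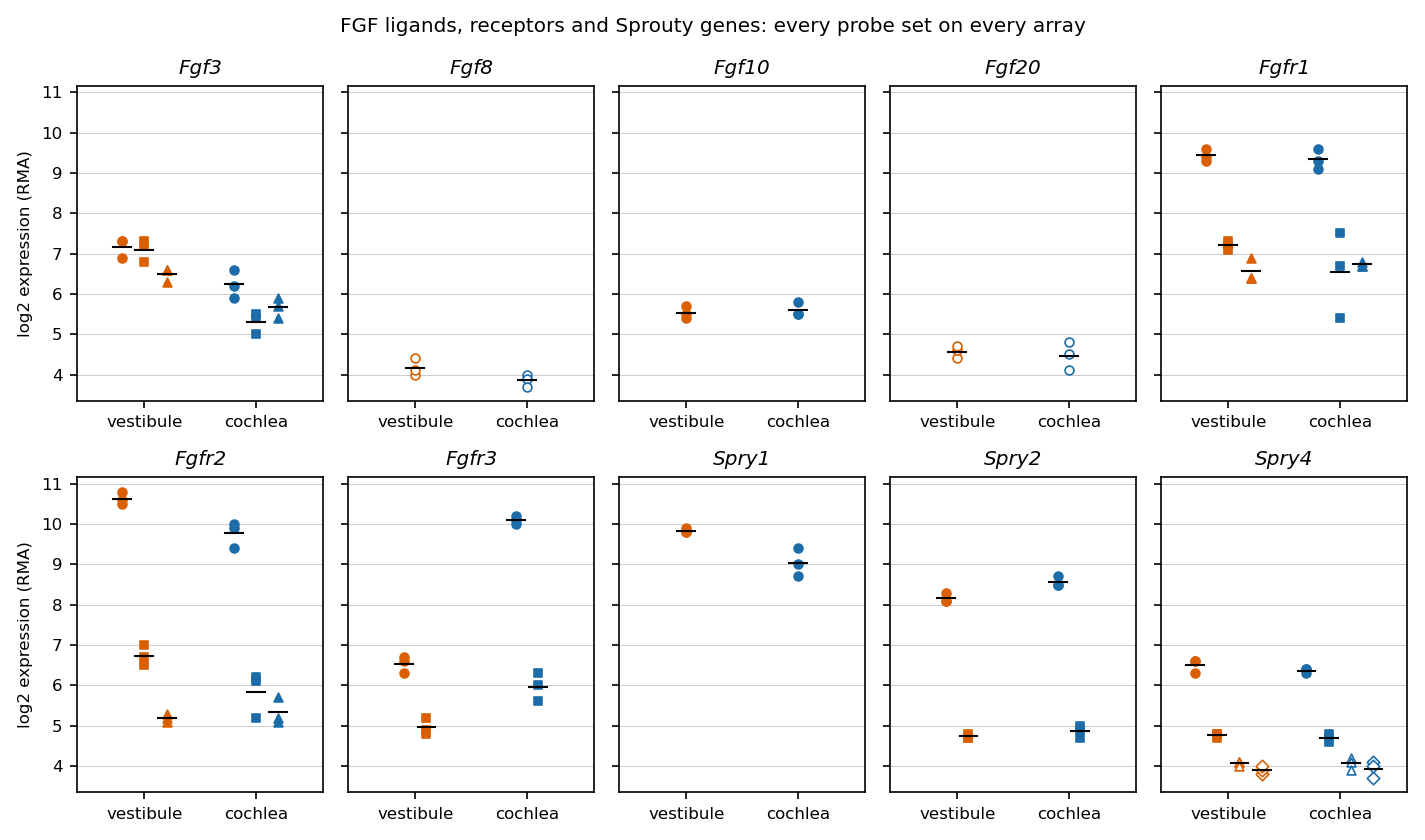
Log2 expression (y axis, RMA) of every probe set of the 10 genes on each vestibule array (orange, left) and cochlea array (blue, right). Each marker shape is 1 probe set, bars are means of 3 arrays, and open markers are probe sets below the filter. The brightest Fgfr3 probe set has the tissues farthest apart, at 6.3 to 6.7 in the vestibule and 10.0 to 10.2 in the cochlea. The other Fgfr3 probe set differs by -1.0.

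The promoter windows of the genes with the clearest tissue difference are printed to show the sequence at the start of each transcript, 250 bases before it to 50 after it, from RefSeq on the build GRCm38.p6. By symbol, windows of 6 of the 10 genes were taken (Fgf3, Fgf10, Fgfr2, Fgfr3, Spry1 and Spry2). None was taken for Fgf8, Fgf20, Fgfr1 and Spry4. The search left out part of the genome, so a missing window does not mean that the reference holds none. Capitals mark the GC box GGGCGG, searched on both strands, a motif that 35.7% of 32851 windows of this length held. Printed are the windows of the cochlea-high gene Fgfr3 and the vestibule-high genes Fgf3, Fgfr2 and Spry1. Spry2, the other cochlea-high gene, is described below without its sequence.
Fgfr3 (chr5:33721474-33721773, plus strand): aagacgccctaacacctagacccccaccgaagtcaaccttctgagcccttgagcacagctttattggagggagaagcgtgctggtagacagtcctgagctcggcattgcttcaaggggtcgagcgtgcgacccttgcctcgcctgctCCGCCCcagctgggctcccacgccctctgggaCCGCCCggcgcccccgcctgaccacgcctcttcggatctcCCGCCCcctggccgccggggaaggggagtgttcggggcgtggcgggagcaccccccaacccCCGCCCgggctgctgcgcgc
Fgf3 (chr7:144838362-144838661, plus strand): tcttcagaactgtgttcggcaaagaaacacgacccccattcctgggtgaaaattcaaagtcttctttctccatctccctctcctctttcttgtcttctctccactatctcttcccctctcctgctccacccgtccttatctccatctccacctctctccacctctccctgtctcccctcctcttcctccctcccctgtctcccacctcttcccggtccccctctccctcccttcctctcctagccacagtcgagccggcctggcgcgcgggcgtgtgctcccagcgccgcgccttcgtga
Fgfr2 (chr7:130266759-130267058, minus strand): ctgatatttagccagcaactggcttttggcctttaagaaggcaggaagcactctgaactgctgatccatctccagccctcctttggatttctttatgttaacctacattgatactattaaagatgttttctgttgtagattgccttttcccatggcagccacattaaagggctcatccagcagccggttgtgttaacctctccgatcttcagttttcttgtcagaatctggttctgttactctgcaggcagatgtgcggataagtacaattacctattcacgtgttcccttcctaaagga
Spry1 (chr3:37639697-37639996, plus strand): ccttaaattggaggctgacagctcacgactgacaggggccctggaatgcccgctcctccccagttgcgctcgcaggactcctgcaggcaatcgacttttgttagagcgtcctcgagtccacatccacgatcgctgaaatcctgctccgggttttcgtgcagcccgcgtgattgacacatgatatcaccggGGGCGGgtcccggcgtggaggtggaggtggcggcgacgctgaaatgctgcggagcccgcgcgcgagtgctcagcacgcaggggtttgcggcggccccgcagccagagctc
The Fgfr3 window held 4 GC boxes, and 69.7% of its bases were G or C, more than in 89.9% of all windows. A downstream Fgfr3 start (chr5:33722056-33722355) had 73.0% G or C and 2 GC boxes that overlap by 1 base. The Fgf3 window was of another kind, with no GC box and with 75.0% pyrimidines (C or T) on the printed strand, a share above that of 99.9% of windows. The Fgfr2 window was low in G and C, at 43.7% against a median of 52.7%, and held 4 CpG dinucleotides, against 29 in the window of Spry1. The window of Spry2, called higher in the cochlea like Fgfr3, held no GC box, with 62.7% G or C and 28 CpG dinucleotides. An ETS site (CCGGAAG, in 8.86% of all windows), an AP-1 site (TGACTCA, in 5.20%) and a TATA box (TATAAA, in 13.6%) were searched on both strands and matched none of the 7 windows of these 6 genes. The 3 genes higher in the vestibule thus shared none of the motifs searched, and the windows are descriptions only.

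Among the receptors, Fgfr3 was lower in the vestibule by 11.8-fold. Fgfr3 encodes the receptor that is expressed in the supporting cells of the organ of Corti and is needed for pillar cells in the mouse. Its brightest probe set (1421841_at) read 6.3, 6.7 and 6.6 on the vestibule arrays, against 10.2, 10.0 and 10.1 on the cochlea arrays. Every cochlea array was therefore more than 3 log2 units above every vestibule array. The means were 6.53 ± 0.21 in the vestibule and 10.10 ± 0.10 in the cochlea (SD, n = 3 each), a difference of -3.57 (standard error 0.14, 95% confidence interval -3.88 to -3.26, limma adjusted p = 1.4e-06). By the size of its difference this probe set was the 64th of the 29554 tested. The other Fgfr3 probe set (1425796_a_at) read 4.8, 5.2 and 4.9 in the vestibule, against 6.3, 6.0 and 5.6 in the cochlea, again with no overlap. Its difference was -1.0 (interval -1.43 to -0.57, limma adjusted p = 0.00697), which lay in the same direction but outside the interval of the brighter one, and its vestibular mean of 4.97 was close to the filter minimum of 4.7.

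The markers of pillar and phalangeal cells, the supporting cells of the organ of Corti, were read beside Fgfr3. Of the 10, all tested, 4 were higher in the cochlea, 2 higher in the vestibule and 4 not called. Cd44, a hyaluronan receptor of outer pillar cells, stood at -2.43, Ngfr, the low-affinity neurotrophin receptor, at -1.43, and Tectb, which encodes a tectorial membrane protein, at -1.37. S100a1, a calcium binding protein gene, was higher in the vestibule at 1.17. The mean level over the list was 8.99 to 9.06 on the vestibule arrays and 9.30 to 9.57 on the cochlea arrays, so that the arrays of the tissues did not overlap. The median difference over the list was smaller, at -0.18. By the unmoderated test 3 of these markers were higher in the cochlea and 2 in the vestibule. Their part in the difference of Fgfr3 was not tested.

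Fgfr2 was higher in the vestibule by 1.82-fold. It encodes the receptor for Fgf3 and Fgf10 in the early inner ear of the mouse. The brightest probe set (1433489_s_at) read 10.8, 10.5 and 10.6 in the vestibule, against 10.0, 9.9 and 9.4 in the cochlea. The lowest vestibule array was 0.5 above the highest cochlea array. The means were 10.63 ± 0.15 in the vestibule and 9.77 ± 0.32 in the cochlea (SD, n = 3 each), and the difference was 0.87 (interval 0.47 to 1.26, limma adjusted p = 0.00897). A second probe set (1420847_a_at), at 6.5, 6.7 and 7.0 in the vestibule and 6.2, 6.1 and 5.2 in the cochlea, gave 0.90 (limma adjusted p = 0.0470). The third (1443211_at), at 5.1 to 5.3 in the vestibule and 5.1 to 5.7 in the cochlea, was not called and gave -0.13 (interval -0.51 to 0.25). The call for Fgfr2 thus rested on 2 of its 3 probe sets. The opposite directions of Fgfr2 and Fgfr3 were each called in the same comparison, with intervals on either side of 0.

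Fgfr1, the receptor that acts in prosensory cells, was not called on any of its 3 probe sets. The brightest (1424050_s_at) read 9.6, 9.3 and 9.4 in the vestibule and 9.3, 9.6 and 9.1 in the cochlea. The tissues overlapped, and the difference of 0.10 had an interval of -0.25 to 0.45 (limma adjusted p = 0.731). The second (1425911_a_at) read 7.1, 7.3 and 7.2 in the vestibule, against 6.7, 7.5 and 5.4 in the cochlea, where the SD was 1.06. Cochlea replicate 3 stood far below the other cochlea arrays there, and the interval ran from -0.31 to 1.65. The third (1436551_at) gave -0.17 (interval -0.52 to 0.18).

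Among the ligands, Fgf3 was higher in the vestibule on all of its 3 probe sets. Fgf3 encodes a secreted FGF that takes part in otic induction and in the shaping of the endolymphatic duct in the mouse. The brightest probe set (1441914_x_at) read 6.9, 7.3 and 7.3 in the vestibule, against 5.9, 6.6 and 6.2 in the cochlea. The groups did not overlap, but vestibule replicate 1 and cochlea replicate 2 were only 0.3 apart. The difference was 0.93 (interval 0.49 to 1.37, limma adjusted p = 0.0111), a fold of 1.91. The suffix _x_at marks a probe set whose probes may also match other transcripts, and _s_at, as on the brightest probe sets of Fgfr1 and Fgfr2, one whose probes are shared by several transcripts. The probe set 1441350_at, which has no such suffix, read 6.8, 7.2 and 7.3 in the vestibule and 5.0, 5.5 and 5.4 in the cochlea. It gave 1.80 (interval 1.39 to 2.21, limma adjusted p = 0.000202), which lies above the interval of the brightest. The third (1422923_at), at 6.3, 6.6 and 6.6 in the vestibule and 5.7, 5.9 and 5.4 in the cochlea, gave 0.83 (limma adjusted p = 0.00674). All 3 probe sets shared the direction, and the difference of 1441350_at was the larger one.

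The other ligands were low or not called. Fgf10, a ligand needed for the semicircular canals of the mouse, read 5.5, 5.4 and 5.7 in the vestibule and 5.5, 5.8 and 5.5 in the cochlea, and its difference of -0.07 had an interval of -0.38 to 0.24 (limma adjusted p = 0.787). Fgf8, the inner hair cell ligand for Fgfr3, had a mean of 4.02 over all arrays, below the filter, with 4.0, 4.1 and 4.4 in the vestibule and 4.0, 3.9 and 3.7 in the cochlea. Fgf20, the prosensory ligand, had a mean of 4.52 and was likewise not tested, at 4.4, 4.6 and 4.7 in the vestibule and 4.1, 4.8 and 4.5 in the cochlea. In both genes the tissues overlapped. Without the filter the intervals were -0.01 to 0.61 for Fgf8 and -0.31 to 0.51 for Fgf20, and neither was called. A difference was thus not detectable at these low signals, which does not show that there is none.

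**Figure D2:**
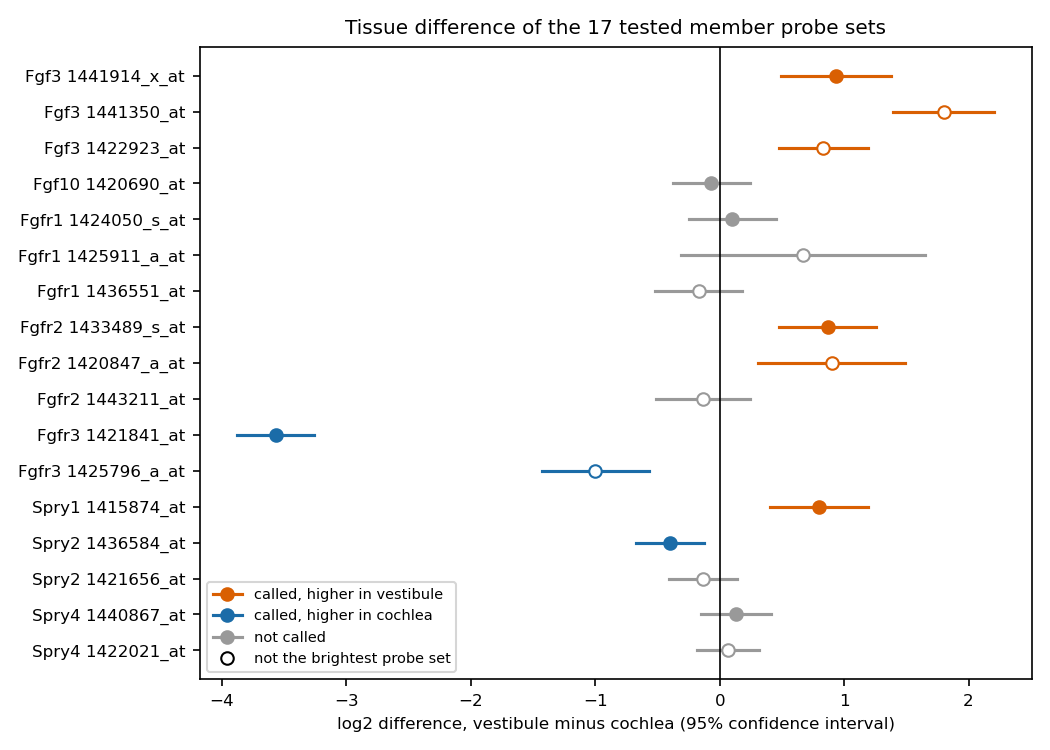
Log2 difference, vestibule minus cochlea, of each of the 17 tested probe sets (x axis), with its 95% confidence interval from limma; rows are probe sets grouped by gene. Orange is called higher in the vestibule, blue called higher in the cochlea and grey not called, and the brightest Fgfr3 probe set lies at -3.57, while no other lies below -1.0.

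The 3 Sprouty genes did not move together. Spry1 was higher in the vestibule, Spry2 was higher in the cochlea by a small margin, and Spry4 was not called. Spry1 (1415874_at) read 9.9, 9.8 and 9.8 in the vestibule, against 9.0, 9.4 and 8.7 in the cochlea. The vestibule arrays were within 0.1 of each other and all lay above the cochlea arrays, which spread over 0.7. The means were 9.83 ± 0.06 in the vestibule and 9.03 ± 0.35 in the cochlea (SD, n = 3 each), a difference of 0.80 (interval 0.41 to 1.19, limma adjusted p = 0.0133) and a fold of 1.74.

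Spry2, whose loss in the mouse adds a pillar cell at the cost of a neighbouring supporting cell, read 8.1, 8.3 and 8.1 in the vestibule and 8.5, 8.5 and 8.7 in the cochlea on its brightest probe set (1436584_at). The tissues did not overlap, and the gap between them was 0.2. The difference was -0.40 (interval -0.67 to -0.13, limma adjusted p = 0.0549), and its fold of 1.32 lay just above the minimum of 1.3. The call was lost without vestibule replicate 1 (-0.37), without vestibule replicate 3 (-0.37) and without cochlea replicate 3 (-0.33), and it was lost in 7 of 19 alternatives in all. The dimmer probe set (1421656_at), at 4.7 to 4.8 in the vestibule and 4.7 to 5.0 in the cochlea, gave -0.13 and was not called. Spry4, which like the other Sproutys restrains receptor tyrosine kinase signalling, read 6.3, 6.6 and 6.6 in the vestibule and 6.4, 6.4 and 6.3 in the cochlea on its brightest probe set, a difference of 0.13 (interval -0.15 to 0.42, limma adjusted p = 0.531). Of its 3 other probe sets 1 was tested, at 0.07, and 2 lay below the filter with 3.7 to 4.2 on all arrays.

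Across the 17 tested probe sets, cochlea replicate 3 gave the lowest cochlear value in 9, among them the brightest probe sets of Fgfr1, Fgfr2 and Spry1. Over all tested probe sets it was the lowest cochlea array in 31.5%. Vestibule replicate 1 gave the lowest vestibular value in 8 of the 17, against 23.3% of all tested probe sets, and cochlea replicate 2 the highest cochlear value in 8, against 27.2%. Without cochlea replicate 3 Fgf3, Fgfr2 and Spry1 were all still called higher in the vestibule, and the same held with each other array left out. Fgfr3 was called higher in the cochlea in all 19 alternatives, with differences of -3.65 to -2.28.

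**Figure D3:**
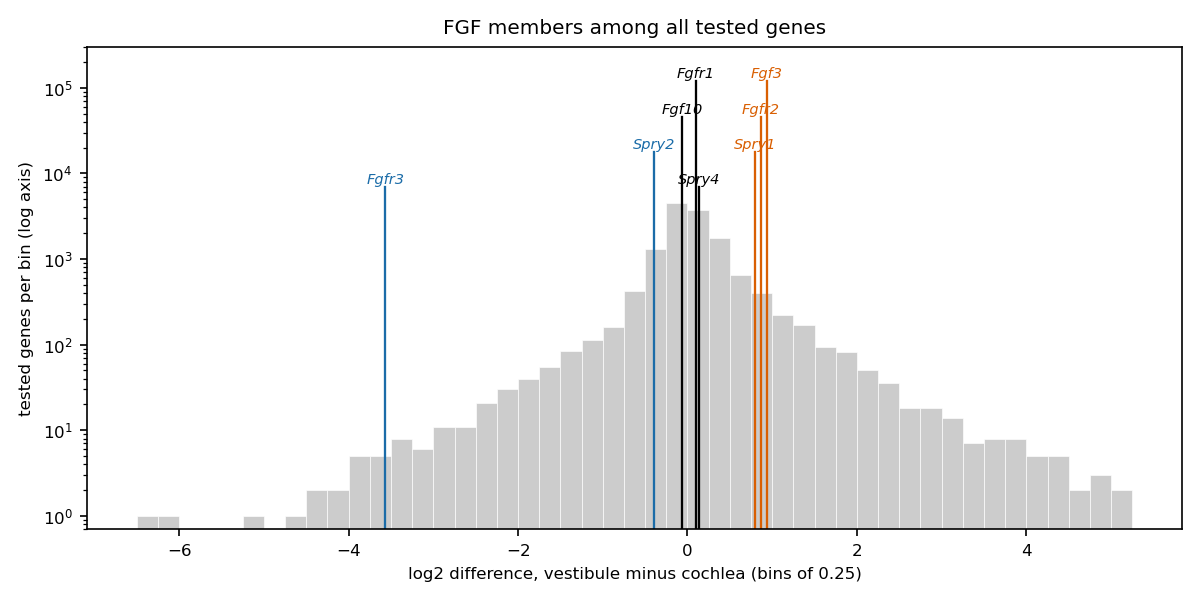
Number of tested genes (y axis, log scale) by log2 difference, vestibule minus cochlea, of the brightest probe set in bins of 0.25 (x axis). Vertical lines mark the 8 tested FGF, receptor and Sprouty genes, orange where called higher in the vestibule, blue where called higher in the cochlea and black where not called, and their height has no meaning; Fgfr3, at -3.57, is the only one in the outer part of the distribution.

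The rest of the pathway was read from 7 lists of 80 genes, of which 72 had a probe set and 60 were tested. Of these, 16 were higher in the vestibule, 6 were lower there and 38 were not called, beside 15.1% and 7.97% of all tested genes. The median difference was 0.13. The lists too were chosen with earlier results known, so the shares are given for reference only. Among 14 other secreted ligands 7 were tested and 2 were called, both higher in the vestibule (2 higher and 1 lower before adjustment at 0.05, 2 and 0 by the unmoderated test). Fgf7, a mesenchymal ligand of the epithelial form of Fgfr2, read 7.9, 6.8 and 7.5 in the vestibule and 6.1, 5.8 and 5.8 in the cochlea, a difference of 1.5 (limma adjusted p = 0.00362). Fgf1, a ligand of all FGF receptors, read 7.9, 7.3 and 7.5 in the vestibule and 6.6, 6.3 and 5.9 in the cochlea, a difference of 1.3 (limma adjusted p = 0.00295). For both genes the lowest vestibule array stood 0.7 above the highest cochlea array on the brightest probe set. A second Fgf1 probe set was called the same way at 1.1, but the third was not called, at 0.30 with overlapping arrays. Of the mesenchyme markers 6 of 12 were also higher in the vestibule (3 by the unmoderated test), and their part in the value of Fgf7 was not tested. Fgf9 was not called, at -0.37 (limma adjusted p = 0.183), although its arrays did not overlap, and Fgf2 was below the filter with means of 3.57 in the vestibule and 3.50 in the cochlea.

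The FGF homologous factors stay inside the cell and bind sodium channels rather than FGF receptors. Of these 4 genes, all tested, Fgf14 was higher in the vestibule, Fgf13 (-0.83) and Fgf11 (-0.77) were higher in the cochlea, and Fgf12 was not called (-0.47). Fgf14 read 5.6, 5.4 and 5.7 in the vestibule, against 4.3, 3.6 and 3.8 in the cochlea, and so passed the filter through the vestibule alone. In the cochlea 7 of 9 neuronal markers were also higher, and the part of neurons in the values of Fgf13 and Fgf11 was not tested.

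Among 5 tested further receptors, co-receptors and binding proteins 2 were higher and 0 lower in the vestibule by limma (2 and 1 before adjustment at 0.05, 1 and 0 by the unmoderated test). Fgfbp1, a secreted carrier that frees FGFs from the matrix, read 7.1, 7.2 and 7.2 in the vestibule and 4.9, 6.0 and 5.8 in the cochlea, a difference of 1.6 (limma adjusted p = 0.00266). Fgfr4, the fourth of the kinase receptors, read 9.6, 9.4 and 9.4 in the vestibule and 9.0, 9.2 and 8.3 in the cochlea, a difference of 0.63 close to the threshold (limma adjusted p = 0.0879). Its 3 other tested probe sets were not called, and the call was lost when any 1 array but cochlea replicate 2 was left out. Fgfrl1, a receptor without the kinase domain, was not called at -0.30 (limma adjusted p = 0.138), but was called higher in the cochlea after another quantile normalization (-0.38, limma adjusted p = 0.0953).

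Of 8 tested feedback inhibitors other than the Sproutys 4 were higher in the vestibule, 1 was higher in the cochlea and 3 were not called, with a median difference of 0.32. Il17rd (Sef), a membrane protein that inhibits FGF signalling, read 10.6, 10.4 and 10.6 in the vestibule and 9.5, 9.7 and 9.4 in the cochlea, a difference of 1.00 (limma adjusted p = 0.000760). Its second probe set was also called, at 0.57. The phosphatase genes Dusp6, whose product switches off ERK, and Dusp4 were higher in the vestibule by 0.70 and 0.93. Dusp6 read 11.0, 10.8 and 11.0 in the vestibule and 10.3, 10.3 and 10.1 in the cochlea. The lowest vestibule array of Dusp6 was 0.5 above the highest cochlea array. Spred2, a relative of the Sproutys, was higher in the vestibule by 0.70 on its brightest probe set, whereas its 3 other tested probe sets were not called. Lrig3, a membrane protein of the leucine-rich repeat family, was higher in the cochlea at -0.73 on its brightest probe set, and a second one was called the same way at -0.63.

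Among the transcription factors and early genes that FGF and ERK signalling induces, 5 of 7 were tested: 1 was higher in the vestibule, 2 were lower there and 2 were not called. Fos was higher in the vestibule by 1.37 (limma adjusted p = 0.00110), with 8.4, 8.2 and 8.9 in the vestibule and 7.3, 7.1 and 7.0 in the cochlea. Etv4, an ETS factor that serves as a readout of FGF signalling in many mouse tissues, was higher in the cochlea, with 6.7, 6.8 and 6.7 in the vestibule and 7.2, 7.2 and 7.3 in the cochlea, a difference of -0.50 (limma adjusted p = 0.0123). Its relative Etv5 was not called and read 8.3, 8.4 and 8.5 in the vestibule and 8.1, 8.8 and 7.7 in the cochlea (0.20, interval -0.36 to 0.76). Etv5 depended on the cochlea arrays: without cochlea replicate 2 it was called higher in the vestibule (0.50, limma adjusted p = 0.0777), and without cochlea replicate 3 it stood at -0.05. The immediate early gene Ier2 was higher in the cochlea at -0.63, a call that was lost without vestibule replicate 1 (-0.58). No probe set named Etv1 alone.

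Of 13 tested adaptors and members of the Ras-ERK cascade 2 were higher and 0 lower in the vestibule by limma (4 and 0 before adjustment at 0.05, 1 and 0 by the unmoderated test). The ERK kinase gene Map2k1 was higher by 0.60 (limma adjusted p = 0.0126), and the adaptor gene Shc1 by 0.53, at the edge of the threshold (limma adjusted p = 0.0987) and with overlapping arrays. The call for Shc1 was lost when any 1 array but cochlea replicate 2 was left out, and its other probe set was not called (0.03). Of 18 tested heparan sulfate genes 4 were higher in the vestibule, 1 was lower there and 13 were not called (7 and 1 before adjustment at 0.05, 1 and 1 by the unmoderated test). Sdc2, a cell surface carrier of heparan sulfate, was higher in the vestibule by 1.07 on its brightest probe set, and 2 others were called the same way. Glce, an epimerase of the chain, was higher in the vestibule by 0.83 on its brightest probe set, while its other tested one was not called (0.10). Hs3st1, a sulfotransferase, was higher in the cochlea at -0.80. Sdc3, at 0.60, was called with overlapping arrays (limma adjusted p = 0.0992), and that call was lost when any 1 array but cochlea replicate 2 was left out. The other probe sets of Sdc3 were not called.

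**Figure D4:**
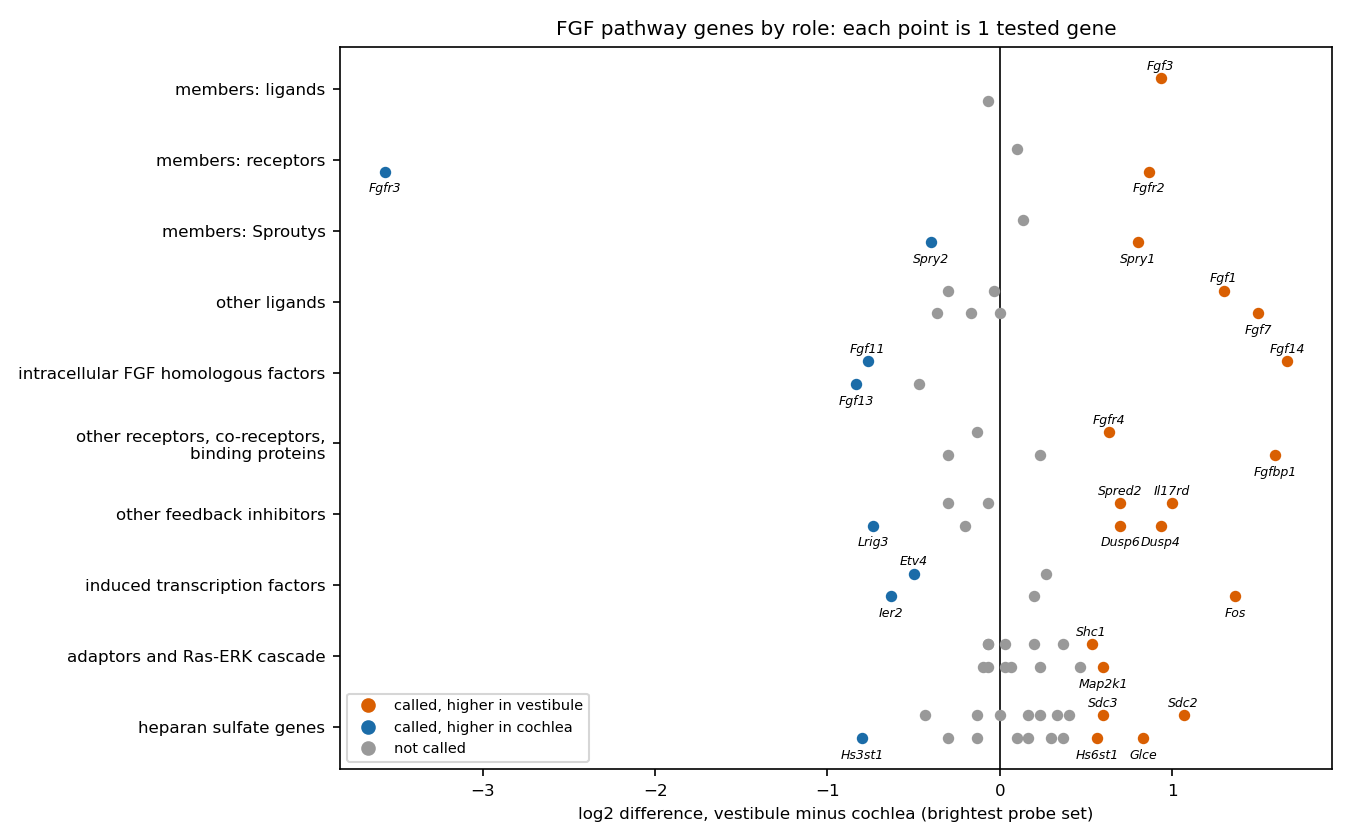
Log2 difference, vestibule minus cochlea, of the brightest probe set (x axis) for each tested FGF pathway gene, in rows by role. Orange points are called higher in the vestibule, blue higher in the cochlea and grey not called; feedback inhibitors and heparan sulfate genes have 4 orange points and 1 blue point each, and Fgfr3 lies farthest from 0.

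For the called member of each role with the largest difference, the genes with the nearest profile were sought among 14161 genes, by the Euclidean distance between mean-centred log2 values over the 6 arrays. Nearest to Fgfr3 were Vsnl1 (distance 0.42), which encodes a neuronal calcium sensor, Fst (0.46), the activin antagonist follistatin, and Strip2 (0.48), with differences of -3.43, -3.60 and -3.53. Vsnl1 and Strip2 read 3.7 to 4.1 in the vestibule, below the filter minimum, so their differences may be understated. Nearest to Fgf3 were Agtr2 (0.23), an angiotensin receptor gene, the chemokine gene Ccl12 (0.23) and the metalloprotease gene Mmp23 (0.31). Nearest to Spry1 was the heparan sulfate epimerase gene Glce (0.09), which is itself on a list above, followed by Mid1ip1 (0.14) and Unc119b (0.14). These distances describe 6 arrays in which most of the spread lies between the tissues. Spry1, Glce, Mid1ip1 and Unc119b also shared an order within the cochlea, with replicate 2 highest and replicate 3 lowest.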

How the data were processed

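Total RNA of 3 vestibule and 3 cochlea samples had been amplified and hybridised to Affymetrix mouse arrays, 1 array per sample. Expression on the log2 scale was derived by the authors with RMA (robust multiarray averaging, quantile normalization), and the deposited log2 values, rounded to 1 decimal, run from 2.8 to 15.0. The sources used here name no version of RMA or MAS5. The values were used without further scaling, and 12.0% to 21.4% of values were identical between any pair of arrays, so none was a copy of another.

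Of 45101 probe sets, 64 controls were left out. The annotation names 1 gene for 34945 probe sets, several for 932 and none for 9160, and 34741 symbols were updated through the Entrez number. The Present calls of the study could not be repeated, and probe sets with a mean of at least 4.7 were tested instead (29554, of which 24802 had 1 gene name). lmFit and eBayes of limma 3.58.1 (R 4.3.3; two-sided, tissue as the only term) gave the differences, with Benjamini-Hochberg adjustment over all tested probe sets, after the code was tested on simulated data. Thresholds, an adjusted p of 0.1 and a fold of 1.3, follow the study. Reading used the package data.table, version 1.17.8, and Python 3.11.15 with pandas 2.3.3, numpy 2.4.6 and matplotlib 3.10.9 drew the figures.

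The members and gene lists were chosen with earlier results of these data known, and the lists come from textbook knowledge. Named are all members and probe sets, up to 4 called genes of each pathway list with the largest difference (the rule also covers the marker lists, most of which are given here by counts and levels only), Fgfr4, Fgfrl1, Dusp6, Il17rd, Etv1, Etv4, Etv5, Fgf9 and Fgf2 whatever their values, and the 3 genes with the profile nearest to the leading member of each role. Fgf12 and a few further probe sets were named after their values were seen. Promoter sequences are from RefSeq (GRCm38.p6). Alternatives were no filter, the brightest 20000 probe sets, centring each array on its median, another round of quantile normalization, limma with array weights or a mean-variance trend, an ordinary (unmoderated) t-test, replicate number as a block, omission of each array in turn, an adjusted p of 0.05, no minimum fold, a random value within 0.05 added to each value, averaging the probe sets of each gene, and leaving out the suffixes _x_at and _s_at. The microRNA and protein measurements of the study are not analysed here.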

Additional observations from a re-analysis of the deposited data

How the results depend on the processing

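Of the called genes, Fgfr2 and Fgfr3 kept their direction and their call in 19 of 19 alternatives, at 0.54 to 0.98 and -3.65 to -2.28, and Fgf3 (0.77 to 1.80) and Spry1 (0.63 to 0.98) in 18 of 19, with the plain t-test as the exception for each (adjusted p = 0.116 and 0.113). The plain t-test called 1 of the members higher in the vestibule instead of 3. That member was Fgfr2, just under the limit of 0.1 (plain t-test adjusted p = 0.0990). Of all probe sets the plain t-test called 2192 higher and 1323 lower in the vestibule, instead of 3559 and 2182. Leaving out 1 array gave 2355 to 3884 probe sets higher and 1414 to 2796 lower in the vestibule, the lowest numbers without vestibule replicate 1. Spry2 was the fragile call. Members higher in the cochlea numbered 1 in place of 2 with array weights, with replicate number as a block, at an adjusted p under 0.05 and with probe sets averaged per gene, and 1 to 2 with 1 array left out, the 1 being Fgfr3 each time. With array weights Spry2 missed the minimum fold (-0.37, limma adjusted p = 0.0454). At the limit of 0.05 and under the block it missed on the limma adjusted p (0.0549 and 0.115). With probe sets averaged it missed on both (-0.27, limma adjusted p = 0.134). Small differences that were not called changed sign: with 1 array left out, Fgf10 ranged from -0.15 to 0.033 (positive without cochlea replicate 2), Fgfr1 from -0.017 to 0.23 (negative without cochlea replicate 3) and Etv5 from -0.05 to 0.50 (negative without cochlea replicate 3, and called higher in the vestibule without cochlea replicate 2). The counts of other pathway genes stayed between 11 and 19 higher and between 5 and 8 lower in the vestibule. The deviations of same-numbered vestibule and cochlea arrays correlated at 0.22, 0.15 and -0.00040. Arrays of different numbers were not compared, so whether the replicate numbers pair the arrays is not settled. With replicate number as a block, adjusted p was 0.0274 for Fgf3, 0.0504 for Fgfr2, 0.00775 for Fgfr3, 0.0765 for Spry1 and 0.115 for Spry2. Of the named pathway genes Fgf13 lost its call under the block (adjusted p = 0.103), and so did Fgfr4 (adjusted p = 0.161). With 3 arrays per tissue small differences can be missed, although some were called (Etv4 at -0.50, and Spry2 at -0.40 as a fragile call). Low signals such as those of Fgf8 and Fgf20 give no firm difference.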
